A study of Saccharomyces cerevisiae with 2 samples.

Results

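The proteins of the large subunit of the cytosolic ribosome were followed in budding yeast, Saccharomyces cerevisiae, supplied with 3% pyruvate against yeast supplied with 2% glucose. Members were taken by symbol: every gene named RPL with a number and an optional A or B, together with RPP0, RPP1A, RPP1B, RPP2A and RPP2B, the genes of the acidic stalk. This gave 80 genes with values, of 5598 named genes measured in all. They encode 46 proteins when the A and B genes of a name, those of RPP1 and RPP2 included, are counted together. Each of 2 two-colour arrays held labelled product amplified from total RNA of both conditions. The glucose sample was in Cy5 on array 1 and the pyruvate sample was in Cy5 on array 2. No label states the strain, the genotype, the rest of the medium or the growth phase.

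Every value below is a log2 ratio of pyruvate over glucose, so that -1 stands for a 2-fold lower signal in pyruvate, and every ± is the SD of the 2 arrays (n = 2). The sign rests on Cy5 being divided by Cy3, the usual order and the order of the channels in the labels, which no source states; it is therefore likely and not settled. With the other order every sign would turn. Nothing in the labels tells whether separate cultures or a single pair of extracts stood behind the arrays, so p-values cover the spread of these arrays alone, and that spread may be technical. The number of arrays limits the precision, and no signal over background was available. The ratios are relative to the RNA hybridised, and fewer cells making a message and less of it per cell cannot be told apart.

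The large subunit joins amino acids at its peptidyl transferase centre, passes the growing chain through a tunnel, and binds elongation factors through a flexible protein stalk. In budding yeast most of its proteins are encoded by a pair of duplicated genes, A and B, whose products are in most pairs identical or nearly so. Transcription of these genes depends on Rap1, Fhl1, Ifh1 and Sfp1 and responds to glucose through the TORC1 and protein kinase A pathways, and making ribosomes takes a large share of the transcription of growing yeast.

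Large subunit genes were lower in pyruvate as a rule, by a moderate amount. The median ratio of the 80 genes was -0.65 (1.57-fold lower), against 0.10 over all genes. By limma's moderated test with Benjamini-Hochberg adjustment over all genes, 29 fell (36.2%), 0 rose and 51 did not pass. The background was 17.2% of all genes lower and 27.1% higher by the same test. At an unadjusted limma p under 0.05 the members counted 47 lower and 0 higher, against a background of 23.4% lower and 33.4% higher. On both arrays 70 of 80 members lay below 0, against 36.3% of all genes. RPL11B and RPL43B were above 0 on both, and the other 8 had opposite signs. On array 1, RPL11B (0.07) and RPL43B (0.17) lay below the median of all genes (0.18), so neither stays above 0 there with centring. On array 2, RPL25 (0.008), RPL29 (0.0075) and RPL26A (0.019) lay below the median of all genes (0.024). Centring takes these genes below 0 on both arrays, so the counts of 70 and 8 depend on it. A 2-fold decrease on each array was reached by 4 members, RPL7A, RPL8A, RPL8B and RPL14B, a share of 5%, near the background of 4.81%. That count is bounded by array 2, where 5 members were at least 2-fold lower (6.25%, background 8.29%), against 36 on array 1 (45%, background 7.29%). The count of genes that fell depended on centring: the median of all genes was 0.18 on array 1 and 0.02 on array 2, and with each array measured from its own median 57 members passed (background 22.5%), with a members' median of -0.75. It was 51 at an adjusted p under 0.1 (background 24.5%), 1 against a minimum change of 1.5-fold (background 3.29%) and 0 without variance moderation (background 0.0893%). In that last setting 6 were lower and 0 higher at an unadjusted p under 0.05, against 10.9% and 17.3% of all genes.

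**Figure D1:**
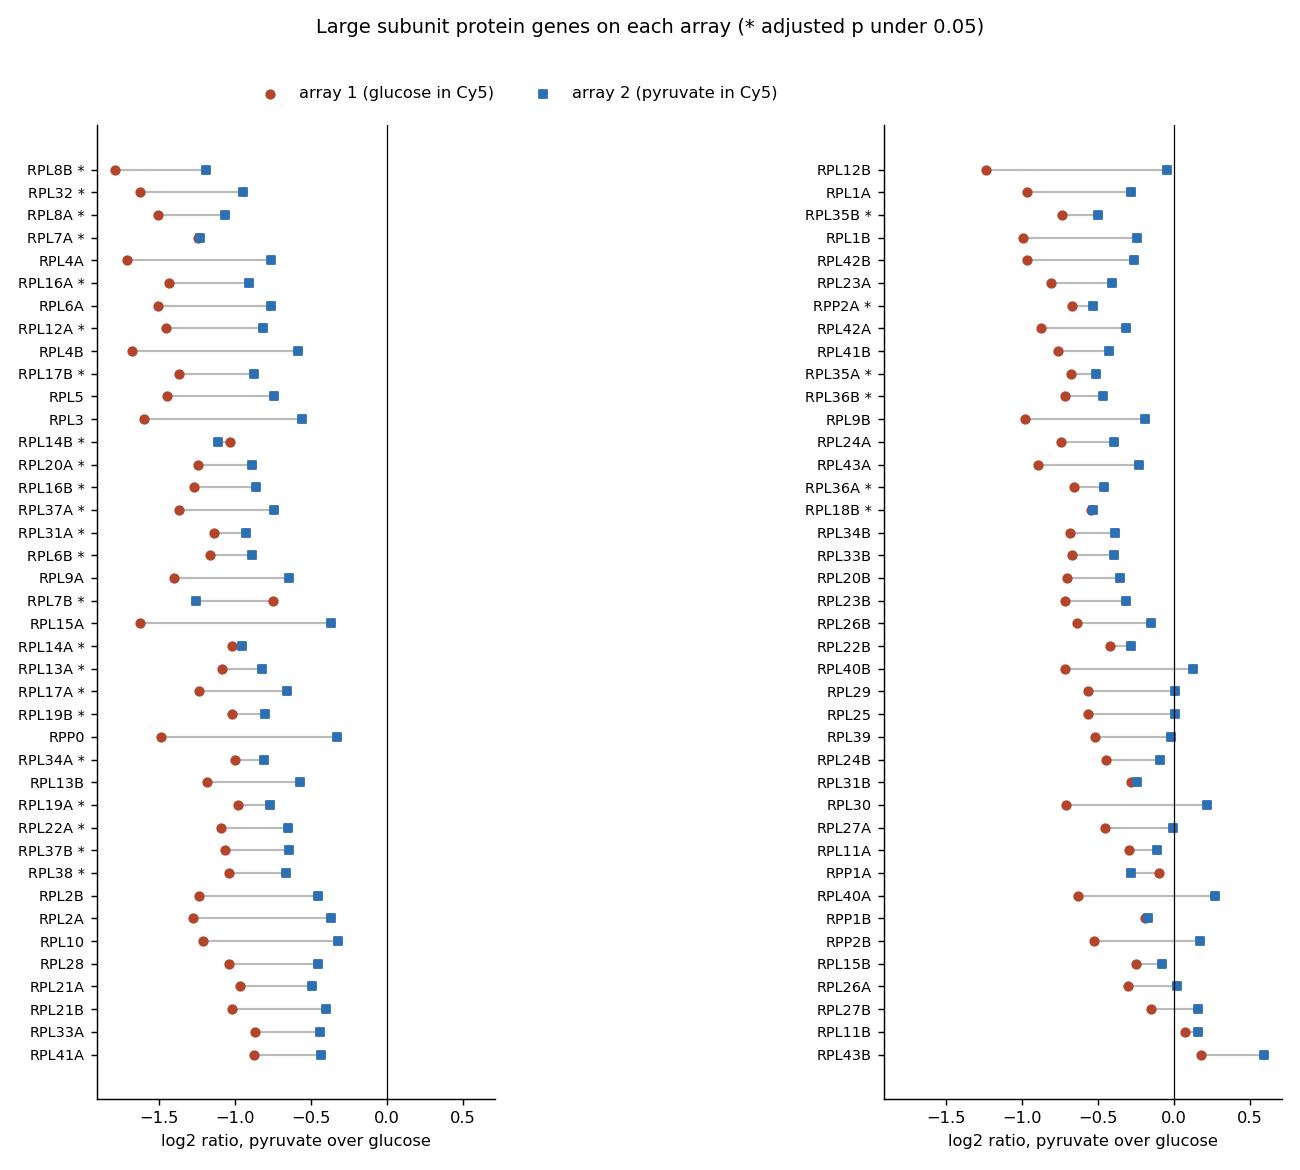
Log2 ratio of pyruvate over glucose of each of the 80 large subunit genes (x axis) on array 1 (circles) and array 2 (squares), ordered by the mean of both from top left to bottom right, with a grey line joining the arrays. An asterisk marks the 29 genes with a limma adjusted p under 0.05; nearly all circles lie left of their squares, and the genes run from RPL8B at -1.49 to RPL43B at 0.38.

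The arrays disagreed about the size of the change. The median of the members was -0.97 on array 1, with a range of -1.79 to 0.17, and -0.44 on array 2, with a range of -1.26 to 0.59. Array 1 gave the lower ratio for 77 of the 80 genes, against 44.7% of all genes, and the exceptions were RPL7B, RPL14B and RPP1A. The median difference, array 2 minus array 1, was 0.44 for the members and -0.03 for all genes. It exceeded 0.5 in 33 members, or 41.2%, against 2.47% of all genes. The SD of the arrays had a median of 0.31 over the members and 0.13 over all genes. On array 1 alone 36 members were at least 2-fold lower (45%, background 7.29%), and on array 2 alone 5 were (6.25%, background 8.29%). Each array had its own dye order, so a dye effect and any other difference between the arrays cannot be told apart.

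Because limma divides a mean by the spread of the arrays, genes with close arrays pass more readily. The 29 genes that fell had a median SD of 0.20 and the other 51 one of 0.41, and 41 of those 51 were still below 0 on both arrays. Of the 20 members with a mean at or below -1, 6 did not pass, namely RPL3, RPL4A, RPL4B, RPL5, RPL6A and RPL9A, with SDs between 0.50 and 0.77. The order of the members was nonetheless similar on the arrays, with a Pearson r of 0.69 and a Spearman rho of 0.70 over the 80 genes, which share both arrays and, within pairs, possibly signal. Array 1 and array 2 gave a Pearson r of 0.81 over all genes.

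**Figure D2:**
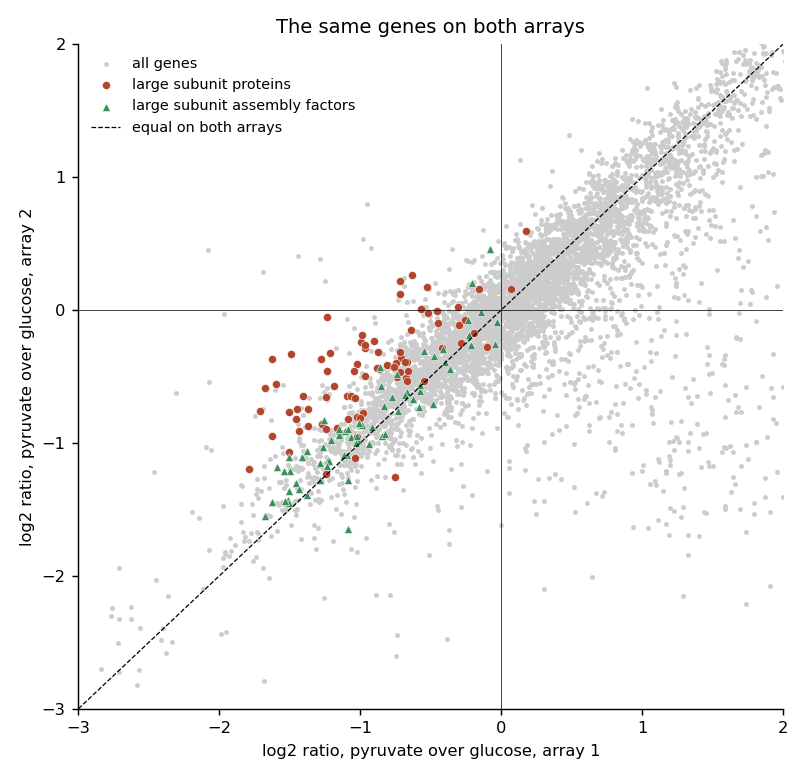
Log2 ratio of pyruvate over glucose on array 1 (x axis) against array 2 (y axis) for all genes (grey points), the 80 large subunit protein genes (red circles) and 67 assembly factors of the large subunit (green triangles); the dashed line marks equal ratios, and 348 genes, none of them a large subunit protein gene, lie outside the axes. The red circles sit above the line in 77 of 80 cases, with a median offset of 0.44, and the green triangles lie closer to it, with a median offset of 0.10.

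The lowest ratio belonged to RPL8B, one of the genes of a protein of the L7Ae family, with -1.79 on array 1 and -1.20 on array 2. Its mean was -1.49 ± 0.42 (2.81-fold lower; limma adjusted p = 0.0257), and its paralogue RPL8A stood at -1.29 ± 0.31 (adjusted p = 0.0229). Both copies were at least 2-fold lower on each array. RPL32, a gene without a paralogue, had -1.63 on array 1 and -0.95 on array 2, with a mean of -1.29 ± 0.48 (limma adjusted p = 0.0378). RPL7A was the most even of the strongly lowered genes, at -1.25 on array 1 and -1.23 on array 2, a mean of -1.24 ± 0.01 and the lowest limma adjusted p of the members, 0.0135. RPL7B had -0.75 on array 1 and -1.26 on array 2, so it was the member furthest on the side of array 2. RPL14A (-1.02 and -0.96) and RPL14B (-1.04 and -1.11) also agreed closely between the arrays, and both fell. RPL16A (-1.17 ± 0.37) and RPL16B (-1.07 ± 0.29), the genes of the yeast counterpart of human RPL13A, fell as well.

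Among the genes of the peptidyl transferase region the means were low and the arrays far apart. Of these, 0 of 6 passed, against a background of 17.2% lower and 27.1% higher. Their median was -1.44 on array 1 and -0.51 on array 2. RPL3, whose product reaches towards the catalytic centre, had -1.60 on array 1 and -0.56 on array 2. RPL4A and RPL4B, which encode the protein with a long loop in the tunnel wall, had -1.72 and -1.68 on array 1 and -0.76 and -0.58 on array 2. RPL2A (-0.82 ± 0.64) and RPL2B (-0.85 ± 0.55) were alike. RPL10, the gene of a late-joining protein next to the transfer RNA sites, was at -1.21 and -0.33, with a mean of -0.77 ± 0.63. All 6 genes were below 0 on both arrays; by limma their adjusted p lay between 0.0652 and 0.131.

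Of 15 genes for proteins around the exit of the tunnel, 9 fell (60%, background 17.2%) and 6 missed the threshold. The median was -0.62. RPL17B had -1.37 on array 1 and -0.88 on array 2, and RPL17A, with -1.24 and -0.66, passed at a limma adjusted p of 0.0497, the highest among those that fell. RPL31A (-1.04 ± 0.15), RPL19B (-0.91 ± 0.15), RPL19A (-0.88 ± 0.15), RPL22A (-0.87 ± 0.31) and RPL38 (-0.85 ± 0.27) fell too, as did RPL35B (-0.62 ± 0.17) and RPL35A (-0.60 ± 0.12). RPL25, the docking site of the signal recognition particle and of the nascent polypeptide-associated complex, did not pass, with -0.57 on array 1 and 0.01 on array 2. RPL39, the gene of a very small protein lining the tunnel, was at -0.52 and -0.02 and did not pass either. The remaining genes of this group that did not pass were RPL22B, RPL26A, RPL26B and RPL31B, with means from -0.39 to -0.14.

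The stalk genes were split. RPP0 encodes the protein that anchors the stalk, and it had -1.49 on array 1 and -0.33 on array 2, a mean of -0.91 ± 0.82 that did not pass. The genes of the acidic proteins bound to it lay nearer 0. RPP2A fell, with -0.67 and -0.54 on the arrays (mean -0.60 ± 0.09; limma adjusted p = 0.0309). RPP1A (-0.19 ± 0.13), RPP1B (-0.18 ± 0.01) and RPP2B (-0.18 ± 0.49) did not pass. At the stalk base, RPL12A fell to -1.14 ± 0.45 (limma adjusted p = 0.0419), while RPL12B had -1.24 on array 1 and -0.05 on array 2 and did not pass. Over these 7 genes the median was -0.60, with 2 that fell (28.6%, background 17.2%).

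Of the 3 genes of the particle formed with 5S ribosomal RNA, 0 passed (background 17.2% lower and 27.1% higher). RPL5 had -1.45 on array 1 and -0.75 on array 2, with a limma adjusted p of 0.0507. RPL11A was at -0.30 and -0.12 and RPL11B at 0.07 and 0.16, and neither passed. Their protein joins the ribosome together with that of RPL5, as background. The genes of the L1 stalk, which contacts the leaving transfer RNA, were RPL1A (-0.63 ± 0.48) and RPL1B (-0.62 ± 0.53), lower on both arrays without passing. Among genes whose proteins contact the small subunit, RPL24A (-0.57 ± 0.25), RPL24B (-0.27 ± 0.25) and RPL41A and RPL41B, of a very small basic protein (-0.66 ± 0.31 and -0.60 ± 0.24), did not pass, at limma adjusted p of 0.0552 to 0.21.

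RPL40A and RPL40B, which encode a ribosomal protein made as a fusion with ubiquitin, had opposite signs on the arrays. RPL40A had -0.63 on array 1 and 0.27 on array 2, and RPL40B had -0.72 and 0.12. RPL30, whose protein blocks the splicing of its own transcript, behaved likewise, with -0.72 and 0.22. For these genes the arrays gave no common direction. The highest member was RPL43B, a gene of a zinc-binding protein, at 0.17 on array 1 and 0.59 on array 2 (mean 0.38 ± 0.30; limma adjusted p = 0.147). RPL27B, at -0.16 and 0.15, had a mean near 0 whose sign changed with scaling of the arrays.

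Of the 41 members outside these structural groups, 18 fell (43.9%, background 17.2%) and 23 missed the threshold. The median was -0.73. Beyond RPL8, RPL32, RPL7, RPL14 and RPL16, the genes that fell were RPL20A (-1.07 ± 0.25), RPL37A (-1.06 ± 0.44), RPL6B (-1.03 ± 0.20), RPL13A (-0.95 ± 0.19), RPL34A (-0.91 ± 0.13), RPL37B (-0.86 ± 0.30), RPL36B (-0.59 ± 0.18), RPL36A (-0.56 ± 0.14) and RPL18B (-0.54 ± 0.01). RPL18B carried the smallest change that passed, with -0.55 on array 1 and -0.53 on array 2. Genes with larger means and wider spread did not pass, such as RPL6A (-1.14 ± 0.52; limma adjusted p = 0.0516) and RPL28, the site of cycloheximide resistance mutations (-0.75 ± 0.41). RPL21A and RPL21B (-0.73 ± 0.34 and -0.71 ± 0.44), RPL33A and RPL33B (-0.66 ± 0.30 and -0.53 ± 0.20), RPL23A and RPL23B (-0.61 ± 0.28 and -0.52 ± 0.29) and RPL42A and RPL42B (-0.60 ± 0.40 and -0.62 ± 0.50) were below 0 on both arrays without passing. RPL29 was at -0.28 ± 0.41 and RPL27A at -0.23 ± 0.31.

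Genes with and without a paralogue had medians not far apart, whose order differed between the arrays. The 11 single genes had a median of -0.77, with -1.04 on array 1 and -0.33 on array 2. Of these, 2 fell (18.2%, background 17.2%), RPL32 and RPL38. The 69 genes that belong to a pair had a median of -0.63, with -0.97 on array 1 and -0.44 on array 2, and 27 of them fell (39.1%). The median difference between the arrays was 0.68 for single and 0.41 for paired genes. The difference between single and paired genes was not tested. Counted by protein, 20 of 46 had at least 1 gene that fell. Most of these proteins have 2 genes that could pass, so the background per gene is not a like measure for this count.

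Both copies were measured for 34 pairs. In 9 pairs both copies fell, in 7 only the A copy passed, in 1, RPL6, only the B copy, and in 17 neither. A copy that passed beside one that did not is no test of a difference between them. The difference A minus B was therefore formed on each array, a quantity that centring the arrays leaves unchanged. It had the same sign on both arrays in 25 pairs, with A lower in 18 and B lower in 7, and opposite signs in 9. The median of A minus B was -0.11, with -0.13 on array 1 and -0.09 on array 2. No test of a single pair was run, and the values are a description.

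The yardstick for these differences was the gap between features of a single gene. The 80 members had 124 features, 44 genes with 2 and 36 with 1, and the gap between a gene's features had a median of 0.05 and a maximum of 0.25, in RPL15A on array 1. In 9 pairs A and B differed by more than that maximum on both arrays in the same direction, and in all 9 the A copy was the lower. This bound was chosen after the values were seen. It measures only the spread of features within an array, and the 36 genes with 1 feature give no gap, so it does not show that the copies of a pair differ. Of the 9 pairs, only RPL15 and RPL34 had 2 features for each copy. In the others 1 copy, such as RPL43B, RPL31A or RPL20B, rested on 1 feature. Whether the features tell the copies of a pair apart is not stated in the sources used here, so cross-binding of a near-identical copy could pull both values together.

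The widest gap was in RPL43. RPL43A had -0.90 on array 1 and -0.23 on array 2, and RPL43B had 0.17 and 0.59, so A minus B was -0.95 ± 0.17. On the deposited scale the copies lay on opposite sides of 0 on both arrays. On array 1, however, RPL43B (0.174) lay just below the median of all genes (0.179), so centring takes it to the side of RPL43A there. RPL15 followed, with RPL15A at -1.63 on array 1 and -0.37 on array 2 and RPL15B at -0.25 and -0.08. Its difference was -1.38 on array 1 and -0.29 on array 2, so array 1 carried most of it. RPL31 was steadier, with RPL31A at -1.14 on array 1 and -0.93 on array 2 and RPL31B at -0.29 and -0.25. A minus B was -0.77 ± 0.12, a 1.70-fold difference between the ratios of the copies.

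For RPL20, A minus B was -0.54 on array 1 and -0.53 on array 2, the closest agreement among the wide gaps apart from RPL24 (-0.30 on both). The others beyond the bound were RPL22 (-0.52 ± 0.22), RPL9 (-0.44 ± 0.02), RPL34 (-0.37 ± 0.08) and RPL11 (-0.32 ± 0.07). As background, the protein of RPL22 inhibits splicing of the RPL22B transcript. RPL12 (-0.49 ± 0.39) and RPP2 (-0.43 ± 0.40) had differences that array 2 widened. The B copy was the lower on both arrays in RPL26 (0.25 ± 0.11), RPL8 (0.21 ± 0.11), RPL17 (0.17 ± 0.06), RPL40 (0.11 ± 0.04), RPL14 (0.08 ± 0.10), RPL19 (0.03 ± 0.0046) and RPL36 (0.03 ± 0.04), where A minus B is positive.

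At the other end, 12 pairs had a mean A minus B within 0.1 of 0. RPL1, RPP1, RPL21, RPL42, RPL2 and RPL35 changed sign between the arrays and differed by less than the widest gap between features of one gene. Across the 34 pairs, A minus B on array 1 and array 2 had a Pearson r of 0.62, and the mean ratios of the A and B copies one of 0.69, both over values that share the arrays.

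**Figure D3:**
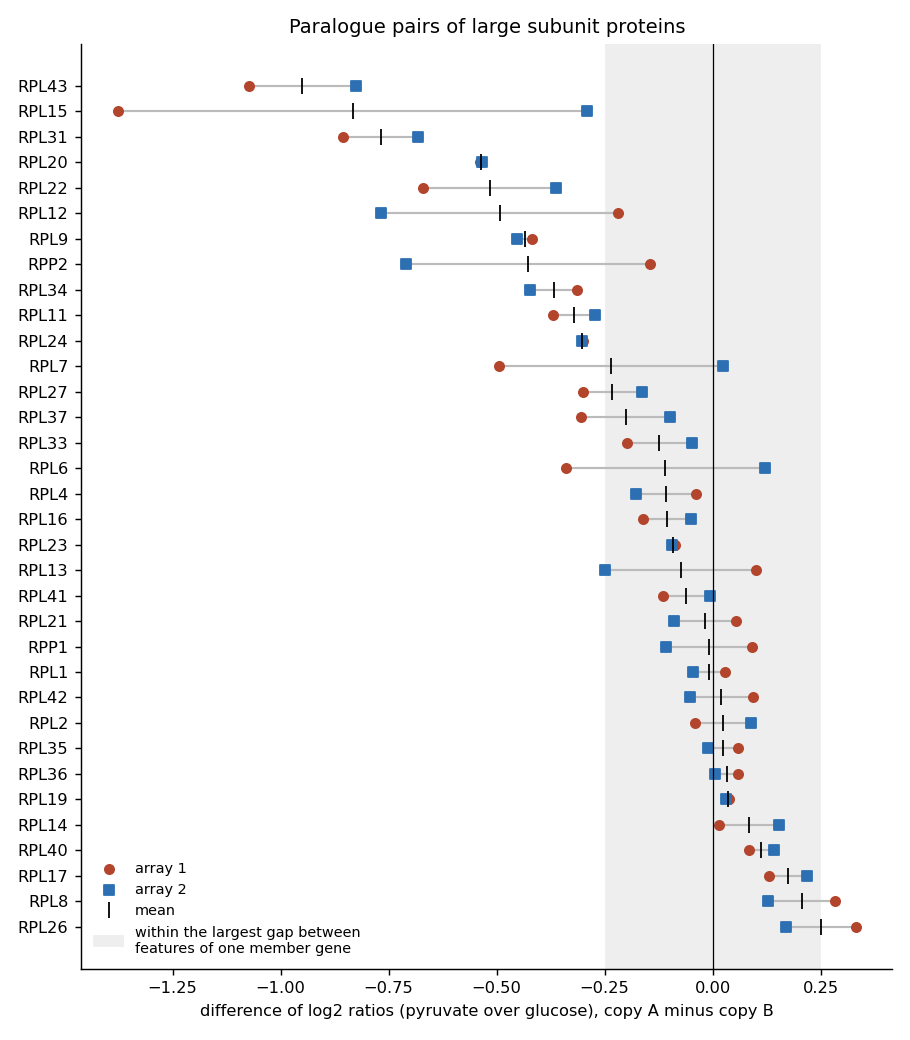
Difference of the log2 ratios (pyruvate over glucose) of copy A minus copy B for 34 pairs (x axis) on array 1 (circles) and array 2 (squares), with the mean as a black tick; the grey band marks the largest gap between features of one member gene, 0.25. In 9 pairs both symbols lie outside the band, all on its left, from RPL43 with a mean of -0.95 to RPL24 with -0.30.

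Some members lie next to another ribosomal protein gene in the RefSeq gene order, and 8 such pairs of neighbours had values for both genes, some alike and some apart. The divergent neighbours RPL24A and RPL30 had -0.75 and -0.72 on array 1, where they were alike, and -0.40 and 0.22 on array 2. RPL39 (-0.27 ± 0.35) lies divergent from the small subunit gene RPS22A (-0.93 ± 0.42). RPL13A and RPL13B (-0.95 ± 0.19 and -0.88 ± 0.43) lie divergent from RPS16B and RPS16A (-0.56 ± 0.28 and -0.31 ± 0.27), so that in both duplicated neighbourhoods the large subunit gene had the lower ratio on each array. RPP2A (-0.60 ± 0.09) and its divergent neighbour RPS15 (-0.86 ± 0.28) both fell. The neighbours RPL18B (-0.54 ± 0.01) and RPS19B (-0.59 ± 0.64) had near-equal means, though only RPL18B passed. RPL21A (-0.73 ± 0.34) lies next to RPS9B (-1.06 ± 0.30), which fell, and RPP1A (-0.19 ± 0.13) lies convergent with RPL13A.

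The other side of the ribosome gave a similar picture. Among 55 small subunit protein genes, 15 fell (27.3%, background 17.2%) and 0 rose, and 40 missed the threshold. Their median was -0.50, made up of -0.74 on array 1 and -0.26 on array 2. Array 1 was the lower in 54 of the 55, with a median difference of 0.43. RPS4A (-1.15 ± 0.41), RPS4B (-1.11 ± 0.31), RPS0A (-1.10 ± 0.44) and RPS28B (-1.09 ± 0.04) had the largest decreases that passed. The median of the large subunit was lower than that of the small subunit on both arrays, and this difference was not tested.

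Among 67 assembly factors of the large subunit, 54 fell (80.6%, background 17.2%) and 0 rose, while 13 missed the threshold. Their median was -0.99. Their arrays were close, at -1.03 on array 1 and -0.93 on array 2, with a median SD of 0.09 against 0.31 for the proteins they assemble. RRP14 (-1.61 ± 0.09), NOP12 (-1.53 ± 0.13), PUF6 (-1.48 ± 0.07) and REA1 (-1.48 ± 0.04), the gene of a giant ATPase that strips assembly factors from the particle, fell most. On array 1 the medians of the proteins and the assembly factors differed little, -0.97 and -1.03, and on array 2 they were -0.44 and -0.93.

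Of 5 chaperones that each guard 1 or a pair of large subunit proteins before assembly, 4 fell (80%, background 17.2%). SQT1, for the RPL10 protein, stood at -1.40 ± 0.18, ACL4, for RPL4, at -1.23 ± 0.05, SYO1, for RPL5 and RPL11, at -1.003 ± 0.03, and RRB1, for RPL3, at -0.77 ± 0.21. BCP1, for RPL23, missed the threshold at -0.05 ± 0.01. The genes of the client proteins, RPL10, RPL4A, RPL4B, RPL5, RPL11A, RPL11B, RPL3, RPL23A and RPL23B, did not pass. Their means ran from -1.24 (RPL4A) to 0.11 (RPL11B). Those of RPL4A, RPL4B, RPL5 and RPL3 were below -1, with SDs between 0.50 and 0.77, so not passing does not mean a smaller decrease than in the chaperones. A difference between chaperone and client genes was not tested.

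Elongation factors shared the disagreement of the arrays. Of 10 genes 2 fell (20%, near the background of 17.2%), TEF4 (-1.43 ± 0.19) and EFB1 (-1.38 ± 0.37), which encode subunits of the exchange factor of eEF1A. The median was -1.42 on array 1 and -0.38 on array 2, and array 1 was the lower in 9 of 10. TEF1 and TEF2, the genes of eEF1A itself, had -1.97 and -2.08 on array 1 and -0.03 and 0.45 on array 2.

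Among 12 regulators of ribosomal protein genes, 1 fell, 2 rose and 9 missed the threshold, and their median was 0.01. The background was 17.2% of all genes lower and 27.1% higher, so these counts do not exceed it. RAP1 (-0.08 ± 0.02), FHL1 (-0.09 ± 0.09) and IFH1 (-0.02 ± 0.0014), the activators at these promoters, did not pass. SFP1 (0.03 ± 0.10) and HMO1 (0.07 ± 0.11) did not pass either, and their means are smaller than the 0.10 that centring the arrays takes from every mean, so their sign turns with it. SCH9, the kinase downstream of TORC1, was at -0.30 ± 0.08 and did not pass. CRF1, which encodes a corepressor that competes with Ifh1 for Fhl1, rose, with 3.06 on array 1 and 1.90 on array 2 (mean 2.48 ± 0.81; limma adjusted p = 0.0292). STB3, a repressor that binds the RRPE element of ribosome biogenesis genes, rose by 0.77 ± 0.09, and TOD6, a repressor that binds their PAC element, fell to -0.84 ± 0.14. DOT6, the paralogue of TOD6, was at 0.37 ± 0.09, the general regulatory factor gene ABF1 at 0.47 ± 0.18 and TBF1 at -0.01 ± 0.17, and none of these passed.

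The genes of the other large subunit in the cell moved the opposite way. All 34 mitochondrial large subunit protein genes named MRPL with a number rose (background 27.1%). Their median was 1.34, with near-equal medians of 1.31 on array 1 and 1.36 on array 2. The largest were MRPL25 (2.27 ± 0.11), MRPL32 (1.83 ± 0.03), MRPL36 (1.81 ± 0.10) and MRPL4 (1.80 ± 0.01). The lowest of the 34, at 0.82, lay above the highest cytosolic member, RPL43B at 0.38.

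**Figure D4:**
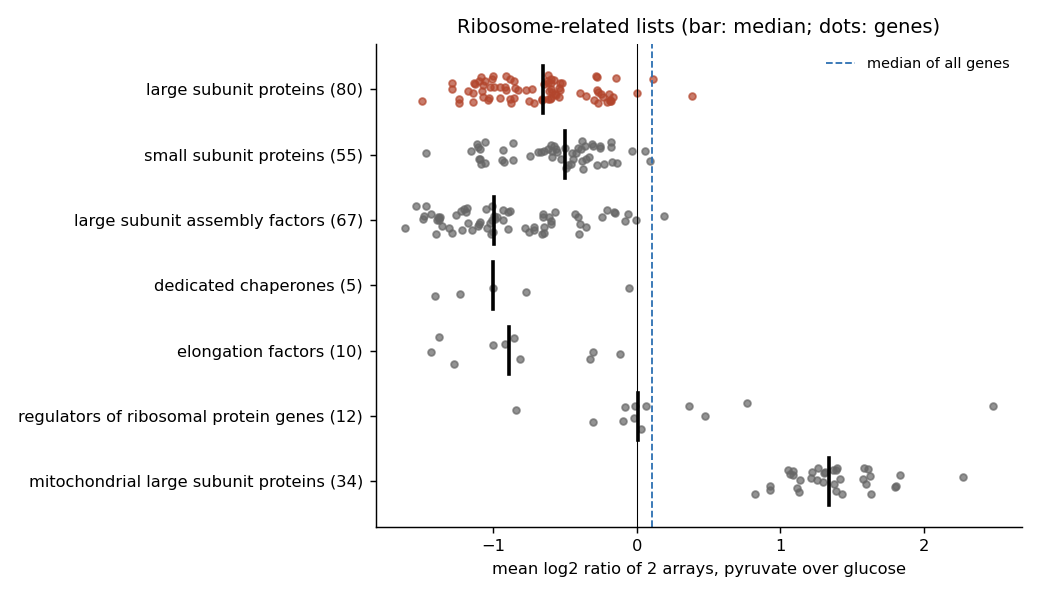
Mean log2 ratio of pyruvate over glucose on 2 arrays (x axis) for each gene (dots) of 7 lists, with the number of genes in brackets, black bars at each list's median and a dashed line at the median of all genes, 0.10. The large subunit proteins have a median of -0.65, between the assembly factors at -0.99 and the small subunit proteins at -0.50, while the mitochondrial large subunit proteins lie at 1.34.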

How the data were processed

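The values are the authors' deposited log2 ratios of the channels for 10807 features on each of 2 two-colour arrays, with 10 and 6 missing. Per the labels, RNA was amplified and labelled with Agilent's low-input kit. The labels name no scanner, background correction, scaling or genome build. Base 2 was inferred from the values. The deposited medians were -0.29 and -0.08, and their centring is unknown. The sign of array 1, where Cy5 marks glucose, was turned.

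Features were named through the platform's annotation and RefSeq gene names (9202 named, 1605 unnamed, 9194 matched to current names) and averaged per gene. All 5598 genes were fitted with limma 3.58.1 under R 4.3.3 (functions lmFit and eBayes, 1 residual and 1.67 prior degrees of freedom), with Benjamini-Hochberg adjustment and a threshold of 0.05. No dye term was fitted, for lack of degrees of freedom. Tables used pandas 2.3.3 and numpy 2.4.6 under Python 3.11.15, and figures matplotlib 3.10.9. The fit was tested on simulated data with independent noise. Those data lack the shared difference between the arrays seen here, so they do not bear on the calls above.

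Members and lists were chosen with earlier results of these data known, so lists have counts and medians and no test. Named genes are all members, 12 regulators and chaperones whatever their values, and up to 4 genes per other list with the largest means that passed. Other regulators and elongation factors, and small subunit genes beside members, were named after their values were seen. Alternatives were centring, scaling, feature summary, moderation, minimum change, threshold and each array alone. Sequences were not used here.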

Additional observations from a re-analysis of the deposited data

How the results depend on the processing

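The count of large subunit genes that fell was 29 (36.2%, background 17.2%). It was 57 with each array minus its median (background 22.5%) and 51 at an adjusted p under 0.1 (background 24.5%). Against a minimum change of 1.5-fold it was 1 (background 3.29%). Without moderation, where 1 residual degree of freedom remains, it was 0 (background 0.0893%). It was 42 with the arrays scaled to one spread, 28 with the first feature only and 29 with the median over features or robust moderation. For scaling, the feature summaries and robust moderation the share of all genes was not worked out. Those counts therefore do not show whether the members moved more than other genes. All 29 genes were among the 57 and the 42. The count that rose was 0 in all the settings named so far. The median ratio, -0.65, lay between -0.97 and -0.44 with 1 array left out and between -0.75 and -0.63 under centring, scaling and the feature summaries. The median difference between the arrays, 0.44, lay between 0.34 and 0.60 under those settings, and the median A minus B, -0.11, between -0.13 and -0.08, arrays alone included. RPL27B, not past the test, turned to 0.0134 with scaled arrays and to 0.0045 with the first feature. SFP1 turned to -0.0686 with centring and to -0.0270 with the first feature, and HMO1 to -0.0339 with centring. Centring takes 0.10 from every mean, which is more than these means; the cause of the other turns was not tested. With 1 array no test could be run. The ratio on each array already pairs the conditions, so no further block was fitted. The lack of signals over background limits what can be said of bright or dim spots.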
